A study of Homo sapiens with 24 samples.

Results

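Heat shock proteins and chaperonins, the protein folding factors of the cell, were followed in 2 human cancer lines through a time course of vemurafenib, an inhibitor of mutant RAF kinase. The set holds every gene named as an HSPA, HSPB or HSP90 protein, as HSPD1, HSPE1 or HSPH1, as a DNAJA, DNAJB or DNAJC protein with a J domain, as a numbered CCT subunit or as TCP1. Of 82 such genes on the array, 73 were kept, out of 13699 genes tested. A gene was kept when at least 1 of its probes had a detection p under 0.05 on at least 3 of 24 arrays, and it was read from its brightest probe. The 9 genes that were not kept were CCT8L2, DNAJB7, DNAJB8, DNAJB13, DNAJC6, HSPA12B, HSPB2, HSPB7 and HSPB9. Of the 73 members, 57 were detected on all 24 arrays, among them all 10 CCT members, all 3 HSP90 members and both mitochondrial chaperonins, against 1 of 4 small heat shock proteins and 8 of 15 members of the HSP70 group, in which HSPH1 is counted.

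The arrays covered SW1736, a thyroid cancer line, and SKMEL28, a melanoma line, and both carry BRAFV600E. Each line had 4 groups of 3 arrays: untreated cells at 0 h, and cells given 2 µM vemurafenib for 1, 6 or 48 h. Untreated cells were taken at 0 h only, so drug and time in culture cannot be told apart. Whether a group's 3 replicates were grown apart is not stated in the labels, so p-values reflect how far these samples differ from each other, a spread that may be technical. Signals are normalised log2 intensities. Each change is the log2 difference of 2 group means ± SE, with limma's p-values adjusted by Benjamini and Hochberg over 13699 genes, and a member is called changed at an adjusted p under 0.05. Each cancer is represented by 1 line, and in such bulk RNA fewer cells of a kind and less RNA per cell cannot be told apart.

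Chaperones keep unfolded proteins from aggregating and help them to fold. HSP70 proteins bind short stretches of a substrate that J domain proteins hand to them, exchange factors of the HSPH1 type reset them, and HSP90 takes over late substrates such as kinases, mutant BRAF among them. The CCT ring folds actin and tubulin in the cytosol, HSPD1 and HSPE1 form the folding chamber of mitochondria, and HSPA5, HSP90B1, DNAJB9, DNAJB11 and DNAJC3 work in the endoplasmic reticulum (ER). Many cytosolic members are switched on by heat shock factor HSF1 at heat shock elements, and ER members by stress factors that read the ER stress response element.

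The sequences shown are the stretches upstream of members whose levels the results turn on, with the motif that a search found in capitals. They are from RefSeq, build GRCh38.p14, and run 5′ to 3′ on the strand of the gene. HSPA1A and HSPA1B are near-identical neighbours (235 of 250 upstream bases identical, 94%) whose probes went opposite ways between the untreated lines. HSPA8 and DNAJB6 hold the longer form of the heat shock element. At 6 h HSPA8 was called in SKMEL28 only and DNAJB6 in SW1736 only. HSPA6, which holds the longer form too, was called at 6 h in neither line. A link between the element and these calls was not tested. HSPB8 was not detected in SW1736, and HSPA5 is an ER member with the ER stress response element. The stretch between HSPD1 and HSPE1 is shared by 2 genes that are read in opposite directions from starts 104 bases apart, and it is shown on the strand of HSPE1 with its E-box in capitals.
HSPA1A (chr6:31815343-31815542, plus strand): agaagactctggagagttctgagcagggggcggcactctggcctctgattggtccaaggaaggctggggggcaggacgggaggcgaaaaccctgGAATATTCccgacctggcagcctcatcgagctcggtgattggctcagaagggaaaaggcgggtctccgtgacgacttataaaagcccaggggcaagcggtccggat
HSPA1B (chr6:31827538-31827737, plus strand): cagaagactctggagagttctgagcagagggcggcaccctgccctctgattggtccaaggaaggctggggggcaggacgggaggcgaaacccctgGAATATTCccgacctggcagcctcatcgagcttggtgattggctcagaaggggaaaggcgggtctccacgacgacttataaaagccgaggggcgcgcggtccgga
HSPA8 (chr11:123062346-123062374, minus strand): gcgagcttGAAAGTTCCAGAAcgctgcgg
DNAJB6 (chr7:157336804-157337003, plus strand): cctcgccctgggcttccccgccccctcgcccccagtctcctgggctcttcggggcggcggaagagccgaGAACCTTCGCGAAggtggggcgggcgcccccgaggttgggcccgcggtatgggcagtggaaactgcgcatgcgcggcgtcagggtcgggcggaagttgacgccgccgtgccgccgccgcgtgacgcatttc
HSPB8 (chr12:119178731-119178930, plus strand): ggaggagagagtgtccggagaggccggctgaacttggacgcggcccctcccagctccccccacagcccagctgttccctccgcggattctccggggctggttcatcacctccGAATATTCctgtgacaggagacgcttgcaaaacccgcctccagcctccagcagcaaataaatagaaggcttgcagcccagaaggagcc
HSPA5 (chr9:125241344-125241543, minus strand): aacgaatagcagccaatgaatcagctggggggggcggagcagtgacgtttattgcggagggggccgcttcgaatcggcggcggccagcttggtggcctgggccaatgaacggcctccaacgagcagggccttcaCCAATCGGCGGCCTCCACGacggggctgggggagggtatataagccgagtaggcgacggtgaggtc
HSPD1 to HSPE1 (chr2:197500275-197500378, plus strand): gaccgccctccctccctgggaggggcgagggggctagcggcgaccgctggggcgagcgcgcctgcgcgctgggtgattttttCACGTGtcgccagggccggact

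Both strands of the 250 bases upstream of the first listed start were searched in 65 members that matched and in all 27305 genes with such a stretch. The short heat shock element, GAANNTTC or TTCNNGAA, was found in 14 of 65 members (21.5%) and in 11.7% of all genes. All 4 small heat shock proteins and 5 of 13 in the HSP70 group held it, as did 2 of 8 CCT, 1 of 4 DNAJA, 1 of 9 DNAJB and 1 of 22 DNAJC members, 0 of 3 HSP90 members and 0 of 2 mitochondrial chaperonins. The longer element adds one more GAA or TTC after 2 more bases of any kind, so it contains the short one, and it was found in DNAJB6, HSPA6 and HSPA8 (4.62% of members, 0.439% of all genes). The ER stress response element, CCAAT followed after 9 bases of any kind by CCACG, was found in HSP90B1 and HSPA5 (3.08% of members, 0.0806% of all genes), and the E-box, CACGTG, in 8 members (12.3%, against 6.49% of all genes). HSPD1 and HSPE1 share 1 E-box, which is counted for each. A match describes these letters only, and no factor binding was measured.

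Between 17369 and 19843 probes were detected per array. DUSP6, a phosphatase of ERK that the drug is known to lower, fell by 1.77 ± 0.21 in SW1736 and by 2.19 ± 0.21 in SKMEL28 at 1 h (adjusted p 6.62e-05 and 1.42e-06). At 48 h it had 7.05, 7.08 and 6.89 in SW1736, against 8.05, 8.08 and 8.24 untreated. In SKMEL28 it had 5.28, 5.51 and 5.70, against 9.86, 9.61 and 9.95. SPRY2, the other gene of the drug check, had 11.41, 11.29 and 11.36 at 48 h in SW1736, above 11.11, 10.68 and 11.15 untreated. The SKMEL28 arrays had 8.59, 8.88 and 8.69, below 11.04, 11.01 and 11.01 untreated. The thyroid factor PAX8 was detected on 3 of 3 untreated SW1736 arrays and on 0 of 3 untreated SKMEL28 arrays, while TG, TSHR and NKX2-1 were not kept. The melanocyte enzyme TYR was detected on 0 of 3 untreated SW1736 arrays and on 3 of 3 untreated SKMEL28 arrays, and 6 of 6 measured melanoma markers were lower in untreated SW1736. Of 6 markers of blood and vessel cells only CD14 was kept, and it rose by 1.98 ± 0.26 at 48 h in SW1736 (adjusted p 2.46e-06); its part in the results was not tested. The median SD of the members between replicates was 0.281 in SW1736 and 0.141 in SKMEL28. Both lines share 1 estimate of the spread per gene in the fit. The printed SE therefore tends to be too small for SW1736 and too large for SKMEL28.

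**Figure D1:**
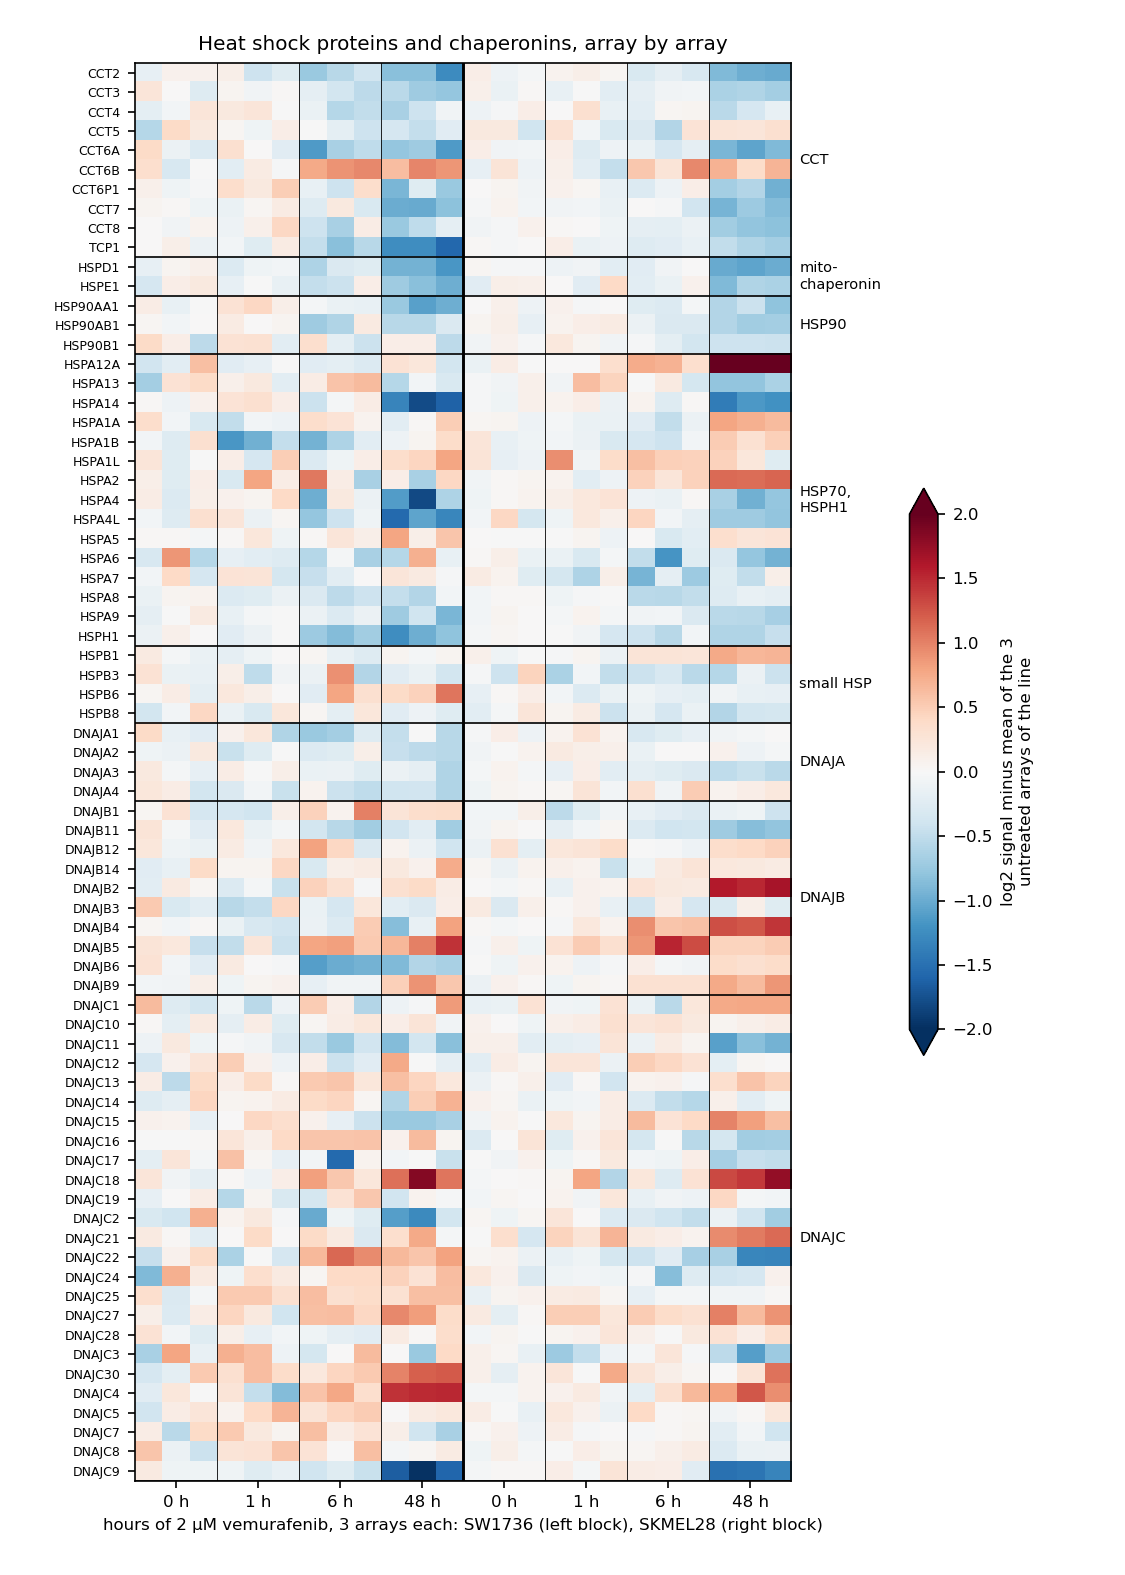
Each row is 1 of the 73 members and each column 1 of the 24 arrays, with SW1736 on the left and SKMEL28 on the right and the hours of vemurafenib in order within each line. The colour is the log2 signal minus the mean of the 3 untreated arrays of that line, and most CCT rows and both mitochondrial chaperonin rows are blue (lower) at 48 h in both lines.

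After 1 h no member was called in either line, against 0.212% of all genes in SW1736 (0.0365% higher, 0.175% lower) and 0.175% in SKMEL28 (0.0365% higher, 0.139% lower) by limma. At an unadjusted p under 0.05 there were 3 of 73 members in SW1736 and 2 in SKMEL28. That is no more than this threshold passes when no gene changes. HSPA1B, an inducible HSP70 of the cytosol, had 10.07, 10.27 and 10.75 at 1 h in SW1736, against 11.18, 10.97 and 11.55 untreated. These arrays do not overlap, but the change of -0.87 ± 0.20 did not pass the test (adjusted p 0.0948). The test was passed without background correction (-0.83, adjusted p 0.00886), with the authors' values (-0.83, adjusted p 0.0089) and in a fit with a replicate block (0.011 after adjustment). It was also passed when SW1736 1 h replicate 3 was left out (-1.07, adjusted p 0.0337) and when replicate 3 of every SW1736 group was (-0.91, adjusted p 0.0483).

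After 6 h, 10 members were called in SW1736, 3 higher and 7 lower (of all genes 8.71%, 4.03% higher and 4.68% lower), and 2 in SKMEL28, 1 higher and 1 lower (of all genes 6.85%, 2.63% higher and 4.22% lower). The member called in both lines was DNAJB5, a cytosolic J protein that delivers substrates to HSP70. It had 7.40, 7.43 and 7.14 at 6 h in SW1736, against 6.88, 6.82 and 6.15 untreated, a rise of 0.71 ± 0.22 (adjusted p 0.047). The SKMEL28 arrays had 6.85, 7.5 and 7.28 at 6 h, against 5.95, 6.07 and 5.89 untreated, a rise of 1.24 ± 0.22 (adjusted p 0.000503). In neither line did the 6 h arrays overlap with the untreated ones. At 48 h DNAJB5 had 7.28, 7.63 and 8.07 in SW1736 (1.04 ± 0.22 over untreated, adjusted p 0.000692) and 6.42, 6.42 and 6.48 in SKMEL28 (0.47 ± 0.22, adjusted p 0.1). The change between 6 h and 48 h was more positive in SW1736 than in SKMEL28 by 1.11 ± 0.31 (adjusted p 0.0149, lost without the third SW1736 arrays, 0.81). The 6 h rise in SW1736 lost its call on leaving out any of 5 of the 6 arrays, all but untreated replicate 1 (0.47 to 0.81), and with median scaling (0.62).

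DNAJB6, a J protein known to keep polyglutamine proteins from aggregating, fell at 6 h in SW1736. Its 6 h arrays had 10.03, 10.14 and 10.19, against 11.41, 11.07 and 10.90 untreated. They do not overlap, and it fell by 1.01 ± 0.14 there (adjusted p 2.29e-05), while another probe of the gene changed by -1.5. Its signals in SKMEL28 were 9.97, 9.80 and 9.76 at 6 h, against 9.83, 9.76 and 9.93 untreated, which overlap. The difference between the lines was -1.01 ± 0.19 (adjusted p 0.0018). At 48 h DNAJB6 was lower than untreated in SW1736 (-0.70 ± 0.14, adjusted p 0.000266) and slightly higher in SKMEL28 (0.35 ± 0.14, adjusted p 0.0465), a difference of -1.05 ± 0.19 (adjusted p 0.00028). The small rise in SKMEL28 lost its call on leaving out any of its 6 arrays (0.31 to 0.39), with median scaling (0.17), with the mean of its probes (0.24) and with the replicate block (adjusted p 0.056). The 6 h difference lost it with median scaling (-0.94, adjusted p 0.0666).

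The other early calls in SW1736 were spread over 4 classes. DNAJC22, known in Drosophila for a part in endocytosis, rose by 0.91 ± 0.21 (adjusted p 0.00759), and CCT6B, a testis form of a CCT subunit, by 0.87 ± 0.20 (adjusted p 0.00621, lost with median scaling, 0.74). HSPH1, an exchange factor for HSP70, had 10.77, 10.64 and 10.81 at 6 h, against 11.39, 11.61 and 11.50 untreated, and it fell by 0.76 ± 0.15 (adjusted p 0.00135). Its groups do not overlap. Of the cytosolic CCT ring, CCT6A fell by 0.76 ± 0.19, TCP1 by 0.62 ± 0.14 and CCT2 by 0.56 ± 0.15 (adjusted p 0.0116, 0.00561 and 0.0211). Another probe of CCT6A changed by -0.14 (-0.45 with the mean of its probes), and the TCP1 call was lost with the mean of its probes (-0.29). DNAJB11, a J protein of the ER, fell by 0.54 ± 0.15 and DNAJC11, a mitochondrial J protein tied to the cristae, by 0.53 ± 0.17 (adjusted p 0.0246 and 0.0496). With 1 array left out, DNAJC11 lost its call in 5 of 6 cases, all but 6 h replicate 3 (-0.59 to -0.43), and DNAJB11 in 4, untreated replicates 1 and 2 and 6 h replicates 2 and 3 (-0.56 to -0.41). DNAJC11 also lost it without background correction (-0.23, adjusted p 0.208), with the authors' values (-0.22), with median scaling (-0.59) and with the replicate block (adjusted p 0.0599). CCT2 lost it in 3, untreated replicates 2 and 3 and 6 h replicate 1 (-0.52 to -0.47), CCT6A in 2, replicate 1 of either group (-0.58 to -0.57), and DNAJC22 without untreated replicate 1 (0.68). With SW1736 fitted alone, DNAJB5, CCT2, CCT6A, TCP1, DNAJB11 and DNAJC11 lost their 6 h calls. The count of 10 members was 6 without untreated replicate 2 or 6 h replicate 1. With median scaling 1 member was higher and 6 were lower.

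HSPA8, the constitutive HSP70 of the cytosol, was the member called lower at 6 h in SKMEL28. Its arrays had 12.80, 12.79 and 12.84 at 6 h, against 13.28, 13.37 and 13.36 untreated. The groups do not overlap, and it fell by 0.53 ± 0.13 (adjusted p 0.0119), while another probe changed by -0.75. In SW1736 it had 12.58, 12.35 and 12.47 at 6 h, against 12.75, 12.94 and 12.95 untreated (-0.41 ± 0.13, adjusted p 0.0534). These groups do not overlap either, and HSPA8 passed the test in SW1736 too without background correction (-0.40, adjusted p 0.0164), with the mean of its probes (-0.54, adjusted p 0.00223) and under 4 further settings, among them the replicate block (adjusted p 0.0463). The fall in SKMEL28 lost its call without untreated replicate 2 (-0.51) or 3 (-0.51), which left 1 member called. At 48 h HSPA8 fell by 0.37 ± 0.13 in SW1736 (adjusted p 0.0312) and changed by -0.20 ± 0.13 in SKMEL28 (adjusted p 0.263). The call in SW1736 was lost without untreated replicate 2 or 3 or 48 h replicate 1 or 2 (-0.34 to -0.27). With median scaling, the median change of all genes at 6 h in SKMEL28 was -0.135 in place of 0.00269, and that of the members -0.266 in place of -0.0757.

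After 48 h, 35 of 73 members were called in SW1736, 11 higher and 24 lower, against 34.3% of all genes (18.2% higher, 16.1% lower). In SKMEL28, 38 were called, 15 higher and 23 lower, against 38.9% of all genes (20% higher, 18.8% lower). The members' median change was -0.11 in SW1736 and -0.18 in SKMEL28, and that of all genes 0.02 and 0.03. Of the members that fell, 19 were shared by the 24 in SW1736 and the 23 in SKMEL28. Over all genes 1245 were shared by 2205 that fell in SW1736 and 2582 in SKMEL28. Of the members that rose, 5 were shared by the 11 in SW1736 and the 15 in SKMEL28, namely CCT6B, DNAJB9, DNAJC4, DNAJC18 and DNAJC27. Over all genes 1152 were shared by 2487 that rose in SW1736 and 2746 in SKMEL28. DNAJB6, DNAJC15 and DNAJC22 were called in opposite directions, as were 275 of all genes.

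**Figure D2:**
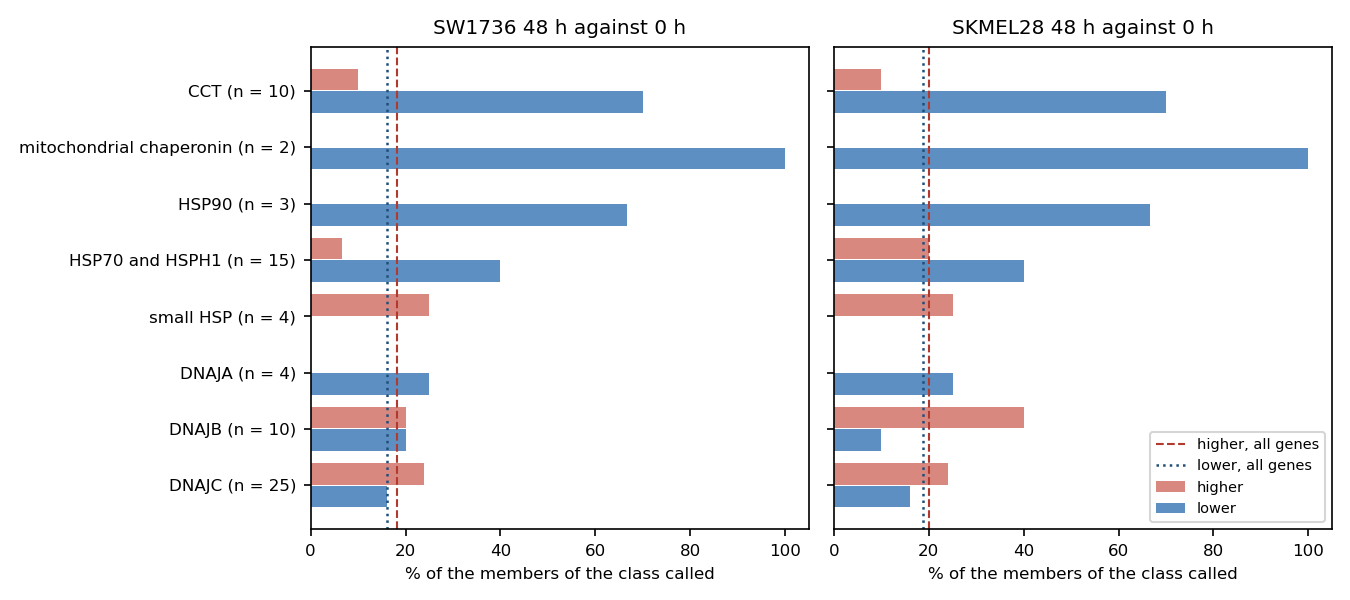
Bars give the percentage of the members of each class called higher or lower at 48 h against 0 h, for SW1736 on the left and SKMEL28 on the right, and vertical lines give the same percentage over all genes. The bars for lower CCT, mitochondrial chaperonin and HSP90 members run far past the line of all genes in both lines, and classes of 2 to 4 members give coarse percentages.

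Of the CCT class, 7 of 10 members were lower and 1 was higher at 48 h in SW1736, and the same counts held in SKMEL28. Of all genes, 16.1% were lower and 18.2% higher in SW1736, and 18.8% lower and 20% higher in SKMEL28. The 7 include a pseudogene, CCT6P1. The median change of the class was -0.65 in SW1736 and -0.69 in SKMEL28. CCT2 had 10.71, 10.70 and 10.28 at 48 h in SW1736, against 11.37, 11.61 and 11.62 untreated, and it fell by 0.97 ± 0.15 (adjusted p 2.15e-05). In SKMEL28 it had 10.61, 10.51 and 10.48 at 48 h, against 11.63, 11.39 and 11.45 untreated, and it fell by 0.96 ± 0.15 (adjusted p 1.89e-05). The groups overlap in neither line. CCT7 fell by 0.94 ± 0.14 in SW1736 and 0.84 ± 0.14 in SKMEL28, and CCT3 by 0.67 ± 0.14 and 0.64 ± 0.14. CCT6A fell by 0.87 ± 0.19 in SW1736 and 0.95 ± 0.19 in SKMEL28, and its pseudogene copy CCT6P1 by 0.63 ± 0.18 and 0.74 ± 0.18. CCT6A and CCT6P1 are near-identical, so their signals may not be separate. CCT8 fell by 0.48 ± 0.17 in SW1736 and 0.77 ± 0.17 in SKMEL28, and the call in SW1736 was lost on leaving out any of 5 of the 6 arrays, all but 48 h replicate 3 (-0.52 to -0.34).

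TCP1, a CCT subunit, fell further in SW1736. It had 10.52, 10.52 and 10.20 there at 48 h, against 11.77, 11.88 and 11.65 untreated, and it fell by 1.35 ± 0.14 (adjusted p 6.33e-08). The SKMEL28 arrays had 11.19, 11.08 and 11.00 at 48 h, against 11.70, 11.66 and 11.69 untreated, and it fell by 0.60 ± 0.14 (adjusted p 0.00142). All treated arrays lie below all untreated ones in each line. The difference between the lines, -0.76 ± 0.20 (adjusted p 0.00726), was -0.32 (adjusted p 0.233) with the mean of the probes and -0.73 (adjusted p 0.0651) with median scaling. Another TCP1 probe changed by -1.04 in SW1736 and -1.01 in SKMEL28. CCT4 and CCT5 were not called in either line. CCT4 changed by -0.38 ± 0.17 in SW1736 and -0.34 ± 0.17 in SKMEL28, and CCT5 by -0.35 ± 0.23 and 0.28 ± 0.23. CCT6B was the member of the class that rose, by 0.83 ± 0.20 in SW1736 (adjusted p 0.00222) and by 0.58 ± 0.20 in SKMEL28 (adjusted p 0.023). In SKMEL28 that call was lost with median scaling (0.49) and without replicate 1 or 3 of either group (0.50 to 0.53).

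Both mitochondrial chaperonins fell in both lines. HSPD1, which forms the ring of the chamber, had 12.62, 12.63 and 12.41 at 48 h in SW1736, against 13.41, 13.63 and 13.67 untreated, and it fell by 1.02 ± 0.13 (adjusted p 1.46e-06). Its signals in SKMEL28 were 12.85, 12.80 and 12.86 at 48 h, against 13.90, 13.83 and 13.83 untreated, and it fell by 1.02 ± 0.13 (adjusted p 9.96e-07). In each line the groups do not overlap. With the mean of its probes the fall of HSPD1 in SKMEL28 was smaller (-0.56, adjusted p 0.000616). HSPE1, the lid of the chamber, fell by 0.84 ± 0.18 in SW1736 and by 0.70 ± 0.18 in SKMEL28 (adjusted p 0.001 and 0.00375). At 6 h neither was called: HSPD1 changed by -0.38 ± 0.13 in SW1736 and -0.09 ± 0.13 in SKMEL28, and HSPE1 by -0.26 ± 0.18 and -0.09 ± 0.18. Both genes are read from the short shared stretch printed above.

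**Figure D3:**
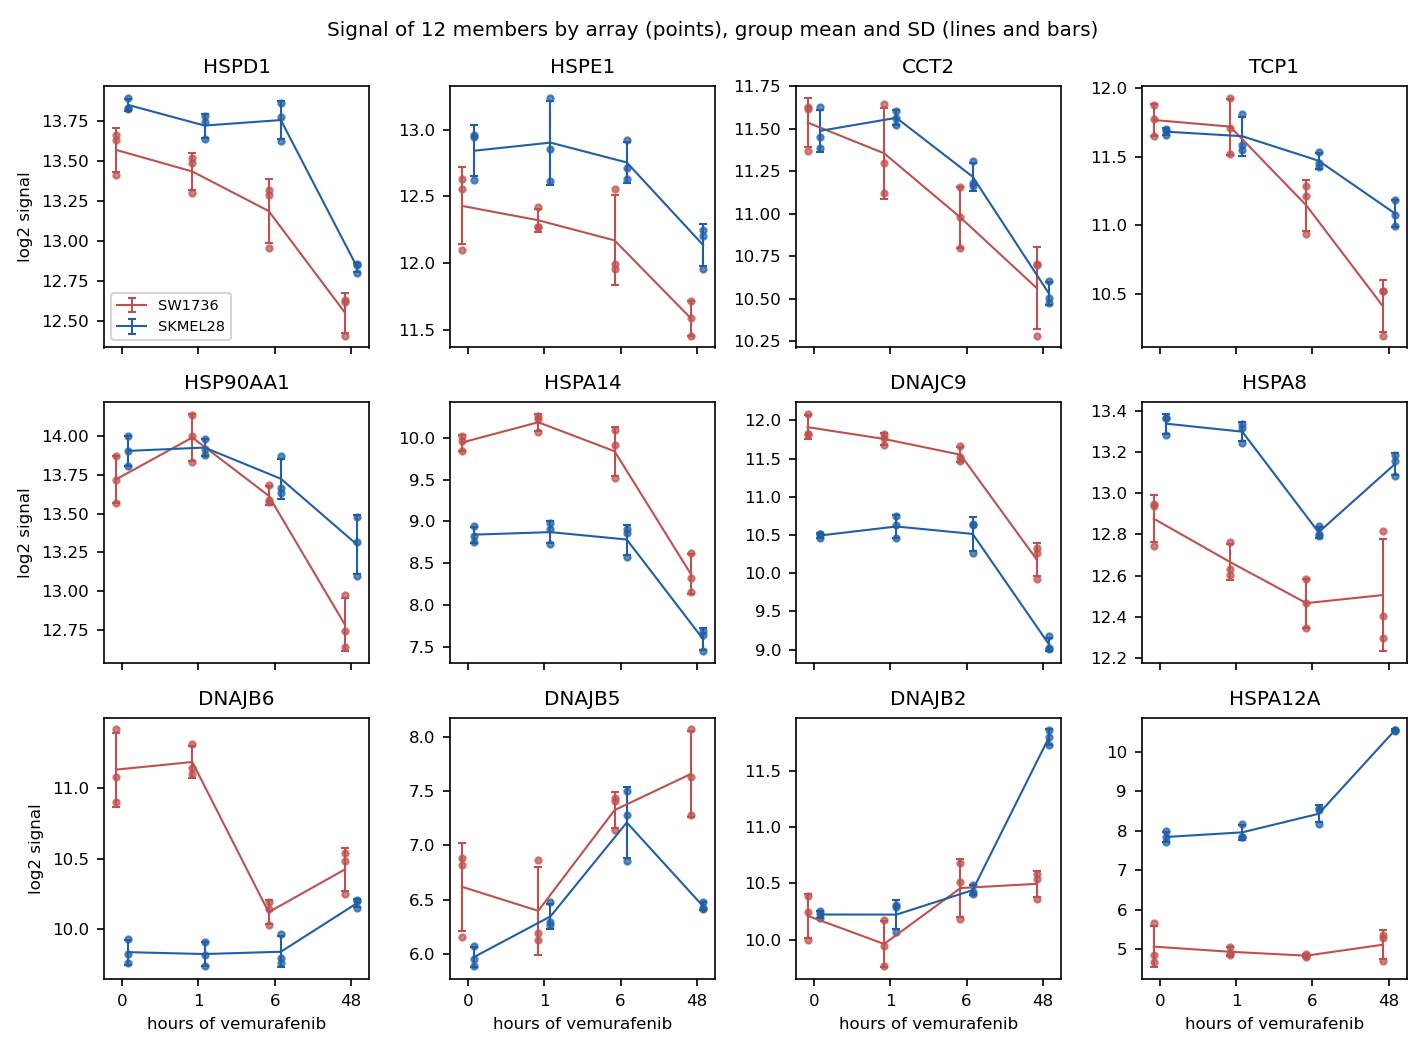
Points are the log2 signals of single arrays of 12 members at 0, 1, 6 and 48 h of vemurafenib, and lines and bars are the mean and SD of 3 arrays for SW1736 (red) and SKMEL28 (blue), on axes that differ between panels. Levels are not compared between genes; HSPD1, CCT2, TCP1, HSPA14 and DNAJC9 are lowest at 48 h in both lines, and DNAJB2 and HSPA12A are highest at 48 h in SKMEL28.

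Of the HSP90 proteins, both cytosolic forms fell and the ER form HSP90B1 was not called. The stress-inducible HSP90AA1 had 12.97, 12.64 and 12.74 at 48 h in SW1736, against 13.87, 13.57 and 13.72 untreated, and it fell by 0.94 ± 0.14 (adjusted p 1.02e-05). In SKMEL28 it had 13.32, 13.48 and 13.10 at 48 h, against 13.91, 14.00 and 13.81 untreated, and it fell by 0.61 ± 0.14 (adjusted p 0.00105). The groups overlap in neither line. Its probes disagree in SKMEL28, where another changed by -0.70 and a dim one, detected on 17 of 24 arrays, by 0.75. With the mean of all its probes the change there was -0.19 (adjusted p 0.159). The constitutive HSP90AB1 fell by 0.46 ± 0.17 in SW1736 and by 0.65 ± 0.17 in SKMEL28 (adjusted p 0.0371 and 0.00338). The call in SW1736 was lost on leaving out any of 5 of the 6 arrays, all but 48 h replicate 3 (-0.49 to -0.42). HSP90B1 changed by -0.08 ± 0.22 in SW1736 and -0.42 ± 0.22 in SKMEL28 (adjusted p 0.82 and 0.15).

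In the HSP70 group, 6 of 15 members were lower and 1 was higher in SW1736, and 6 were lower and 3 higher in SKMEL28. Of all genes, 16.1% were lower and 18.2% higher in SW1736, and 18.8% lower and 20% higher in SKMEL28. HSPA14, which works at the ribosome on chains as they are made, had 8.63, 8.15 and 8.33 at 48 h in SW1736, against 9.97, 9.84 and 10.02 untreated, and it fell by 1.58 ± 0.16 (adjusted p 3.5e-08). The SKMEL28 arrays had 7.44, 7.69 and 7.63 at 48 h, against 8.82, 8.76 and 8.95 untreated, and it fell by 1.25 ± 0.16 (adjusted p 7.51e-07). The groups are far apart in each line. The mitochondrial HSPA9 fell by 0.68 ± 0.14 in SW1736 and 0.58 ± 0.14 in SKMEL28. The exchange factor HSPH1 fell by 1.01 ± 0.15 in SW1736 and 0.56 ± 0.15 in SKMEL28.

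The exchange factor HSPA4L fell by 1.30 ± 0.21 in SW1736 (adjusted p 3.35e-05). In SKMEL28 its probe was detected on 0 of 3 arrays at 48 h and on 2 of 3 untreated, so it was at least 1.04-fold lower there (adjusted p 0.0065), and the call was lost without untreated replicate 2 (-0.54). For its relative HSPA4 the probes disagree: the brightest changed by -1.18 ± 0.25 in SW1736 and -0.79 ± 0.25 in SKMEL28, another by 0.32 and -0.01. With the mean of both HSPA4 probes neither line was called (-0.43 and -0.40), and in SKMEL28 the call was also lost without 48 h replicate 2 (-0.70). HSPA13, an HSP70 found with microsomes, fell by 0.73 ± 0.23 in SKMEL28 (adjusted p 0.0152, lost without untreated replicate 3, -0.68) and changed by -0.31 ± 0.23 in SW1736. HSPA5, the main HSP70 of the ER, had 9.51, 8.84 and 9.28 at 48 h in SW1736, against 8.75, 8.74 and 8.68 untreated, a rise of 0.48 ± 0.15 (adjusted p 0.0123). In SKMEL28 it changed by 0.28 ± 0.15 (adjusted p 0.141). The rise in SW1736 lost its call without 48 h replicate 1 (0.33), without the third SW1736 arrays (0.43) and with median scaling (0.29).

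HSPA12A, a distant relative of HSP70, had the largest rise of the 73 members at 48 h. It had 10.56, 10.57 and 10.53 at 48 h in SKMEL28, against 7.71, 7.99 and 7.84 untreated, a rise of 2.71 ± 0.20 (6.55-fold, adjusted p 1.92e-10). All treated SKMEL28 arrays lie far above the untreated ones, and with the mean of its probes the rise was 1.24 (adjusted p 2.44e-07). In SW1736, 1 of 3 arrays detected it at 48 h and 1 of 3 untreated, so its change there was not measured well. The difference between the lines passed the test (adjusted p 2.76e-07), but its size rests on those SW1736 signals near background. HSPA2, an HSP70 abundant in testis, had 10.62, 10.60 and 10.65 at 48 h in SKMEL28, against 9.41, 9.5 and 9.53 untreated, a rise of 1.14 ± 0.31 (adjusted p 0.0046). In SW1736 it changed by -0.03 ± 0.31. HSPA1A rose by 0.71 ± 0.18 in SKMEL28 (adjusted p 0.00281), a call lost with median scaling (0.49). Its neighbour HSPA1B changed by 0.11 ± 0.20 in SW1736 and by 0.43 ± 0.20 in SKMEL28, and neither was called. In SKMEL28 it was called higher under 5 alternatives, among them no background correction (0.41, adjusted p 0.0418), SKMEL28 fitted alone (adjusted p 0.0186) and the replicate block (adjusted p 0.0209). HSPA1A and HSPA1B share most of their sequence, so the HSPA1B signal may hold both. The HSPA1A probe had 5.35, 4.94 and 4.70 in untreated SW1736, where HSPA1B had 11.18, 10.97 and 11.55.

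Of 4 small heat shock proteins, 1 rose in each line, against 18.2% of all genes in SW1736 and 20% in SKMEL28. HSPB1, a ubiquitous small heat shock protein, had 12.63, 12.53 and 12.54 at 48 h in SKMEL28, against 11.96, 11.77 and 11.86 untreated, a rise of 0.70 ± 0.12 (adjusted p 6.02e-05). In SW1736 it had 13.79, 13.70 and 13.79 at 48 h, against 13.91, 13.69 and 13.61 untreated, which overlap. The difference between the lines was -0.68 ± 0.17 (adjusted p 0.00606), and it lost its call with median scaling (-0.61). HSPB6, a small heat shock protein of muscle, was the member called higher in SW1736 (adjusted p 0.0147). It was detected there on 3 of 3 arrays at 48 h and on 0 of 3 untreated, at least 1.4-fold higher. Its 48 h signals were 5.57, 5.65 and 6.26, near background. In the whole series its probe was detected on 5 arrays. HSPB6 thus passed the filter of 3 arrays only through the group in which it is high, so its call is not independent of the filter. HSPB8, a partner of BAG3 in selective autophagy, changed by -0.43 ± 0.19 in SKMEL28 (adjusted p 0.0833) and was detected on 0 of 3 arrays at 48 h in SW1736.

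Among the DNAJA and DNAJB proteins, calls went both ways. In the DNAJA class 1 of 4 was lower in each line, DNAJA2 in SW1736 (-0.51 ± 0.14) and the mitochondrial DNAJA3 in SKMEL28 (-0.50 ± 0.14), and the cytosolic DNAJA1 was called in neither. In the DNAJB class 2 were higher and 2 lower of 10 in SW1736, and 4 higher and 1 lower in SKMEL28. Over all genes 18.2% were higher and 16.1% lower in SW1736, and 20% and 18.8% in SKMEL28. DNAJB2, a J protein that binds ubiquitin chains, had 11.80, 11.73 and 11.87 at 48 h in SKMEL28, against 10.23, 10.19 and 10.25 untreated, a rise of 1.58 ± 0.15 (adjusted p 6.7e-09), or 1.00 with the mean of its probes. In SW1736 it had 10.54, 10.59 and 10.36 at 48 h, against 10.00, 10.39 and 10.25 untreated (0.29 ± 0.15, adjusted p 0.142). The lines differed by -1.29 ± 0.21 (adjusted p 5.93e-05), or -0.77 with the mean of its probes. DNAJB4, a cytosolic J protein, rose by 1.32 ± 0.26 in SKMEL28 (adjusted p 0.000254). In SW1736 it had 6.03, 6.74 and 7.69 at 48 h, against 6.92, 6.83 and 6.91 untreated, and the treated arrays were widely spread. The difference between the lines was -1.38 ± 0.37 (adjusted p 0.00844). The ER protein DNAJB9, which helps to clear misfolded ER proteins, rose by 0.64 ± 0.13 in SW1736 and 0.76 ± 0.13 in SKMEL28, with the call in SW1736 lost under median scaling (0.48). DNAJB11, which acts with HSPA5 in the ER, fell by 0.43 ± 0.15 in SW1736 and by 0.78 ± 0.15 in SKMEL28. The call in SW1736 was lost without untreated replicate 1 or 2 or 48 h replicate 3 (-0.44 to -0.30). DNAJB1, the classical partner of inducible HSP70, was called in neither line (0.33 ± 0.20 in SW1736, -0.21 ± 0.20 in SKMEL28).

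The 25 DNAJC proteins, the most varied class, had 6 higher and 4 lower in SW1736 and 6 higher and 4 lower in SKMEL28. These shares are near those of all genes (18.2% higher and 16.1% lower in SW1736, 20% and 18.8% in SKMEL28). DNAJC9, a histone chaperone, had 10.27, 9.93 and 10.33 at 48 h in SW1736, against 12.09, 11.83 and 11.82 untreated, and it fell by 1.73 ± 0.14 (adjusted p 1.46e-09). Its signals in SKMEL28 were 9.01, 9.03 and 9.17 at 48 h, against 10.46, 10.51 and 10.51 untreated, and it fell by 1.43 ± 0.14 (adjusted p 2.1e-08). The groups do not overlap, and of the 73 members it had the most negative change in each line. DNAJC4 had 9.67, 9.71 and 9.73 at 48 h in SW1736, against 8.0, 8.46 and 8.21 untreated, and it rose by 1.48 ± 0.23 there and by 1.00 ± 0.23 in SKMEL28. DNAJC18, a J protein of the ER membrane, rose by 1.33 ± 0.26 in SW1736 and 1.5 ± 0.26 in SKMEL28, and DNAJC27, which joins a J domain to a GTPase, by 0.72 ± 0.19 and 0.85 ± 0.19. DNAJC11 fell by 0.69 ± 0.17 in SW1736 and by 0.95 ± 0.17 in SKMEL28.

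Other DNAJC members were called in 1 line. DNAJC30, a mitochondrial J protein, rose by 1.14 ± 0.24 in SW1736 (adjusted p 0.000621) and changed by 0.45 ± 0.24 in SKMEL28. Its other probe changed by 0.23 in SW1736. DNAJC21, which works in ribosome assembly, had 6.53, 6.61 and 6.71 at 48 h in SKMEL28, against 5.57, 5.92 and 5.25 untreated, a rise of 1.04 ± 0.20 (adjusted p 0.000252). The call was lost (0.44) with the mean of its probes, of which the other was detected on 3 of 24 arrays. DNAJC1, a J protein of the ER membrane, rose in SKMEL28 by 0.77 ± 0.29 (adjusted p 0.0366), lost on leaving out any of 5 of the 6 arrays, all but untreated replicate 3 (0.69 to 0.78).

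The size of many changes depended on the background correction. Without it, 57 of 180 called values of the 52 named members moved by over 1.5 times, and 52 of those kept their call. At 48 h in SW1736 the change without it was -0.60 for HSPA4L, 0.68 for DNAJC18, 0.63 for DNAJB5 and -0.28 for DNAJC11, and in SKMEL28 it was 0.88 for DNAJC18, 0.87 for DNAJB4, 0.45 for DNAJC21 and -0.52 for DNAJC22. With SW1736 fitted alone, CCT8, DNAJB11, DNAJC22, HSP90AB1, HSPA5 and HSPA8 lost their 48 h calls in that line.

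**Figure D4:**
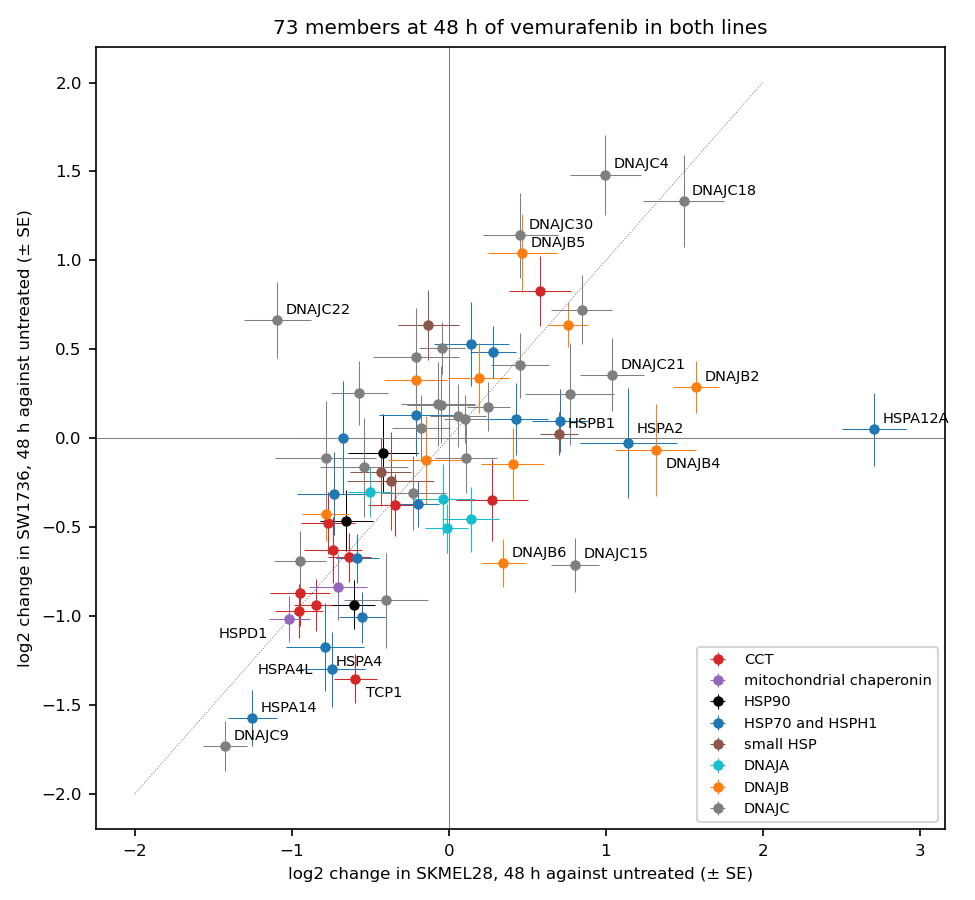
Each point is 1 of the 73 members, with its log2 change at 48 h against untreated cells in SW1736 on the vertical axis and in SKMEL28 on the horizontal axis, bars of 1 SE, colours for the classes and a dotted line of equal change. All HSP90 and mitochondrial chaperonin points and the CCT points other than CCT6B and CCT5 lie where both changes are negative, HSPA12A, DNAJB2 and DNAJB4 lie far to the right, and DNAJC22, DNAJC15 and DNAJB6 differ in sign between the lines.

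DNAJC15 and DNAJC22 moved in opposite directions in the lines. DNAJC15, a mitochondrial J protein, had 7.26, 7.26 and 7.35 at 48 h in SW1736, against 8.09, 8.07 and 7.84 untreated, and it fell by 0.71 ± 0.15 (adjusted p 0.000753). In SKMEL28 it had 8.64, 8.46 and 8.25 at 48 h, against 7.58, 7.72 and 7.64 untreated, and it rose by 0.80 ± 0.15 (adjusted p 0.000163). The groups overlap in neither line, and the difference was -1.52 ± 0.21 (adjusted p 1.33e-05). DNAJC22 had 6.92, 6.83 and 7.08 at 48 h in SW1736, against 5.82, 6.37 and 6.66 untreated (0.67 ± 0.21, adjusted p 0.0176). The SKMEL28 arrays had 6.30, 5.66 and 5.64 at 48 h, against 7.0, 7.03 and 6.84 untreated (-1.09 ± 0.21, adjusted p 0.000221). These SKMEL28 arrays do not overlap. The difference was 1.35 ± 0.30 at 6 h (adjusted p 0.00789) and 1.76 ± 0.30 at 48 h (adjusted p 0.000134). The rise in SW1736 at 48 h lost its call without untreated replicate 1 (0.43) or 48 h replicate 3 (0.60) and with median scaling (0.61).

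The response at 48 h differed between the lines in 9 of 73 members, 2 more positive and 7 more negative in SW1736 (of all genes 21%, 11.5% more positive and 9.54% more negative). Beside those named, DNAJC16 passed the test (adjusted p 0.0223): it changed by -0.57 ± 0.18 in SKMEL28, while in SW1736 its probe was detected on 0 of 3 treated arrays at 48 h and 0 of 3 untreated ones. Its response in SW1736 was therefore not measured, and no size is given for the difference. That call was lost without SKMEL28 untreated replicate 3, SKMEL28 48 h replicate 2 or 3 or SW1736 48 h replicate 2, without background correction and with the authors' values. The call in SKMEL28 was lost without untreated replicate 3 or 48 h replicate 2 or 3 (-0.52 to -0.44) and without background correction (-0.24). The response at 6 h differed in 2 members, DNAJB6 and DNAJC22 (of all genes 4.24%, 2.29% more positive and 1.95% more negative), and that at 1 h in 0 by limma (of all genes 0.0219%, 0.0146% more positive and 0.0073% more negative). At 1 h, 1 of 73 members had an unadjusted p under 0.05, no more than this threshold passes when no gene changes. With median scaling the 2 at 6 h were DNAJC22 (1.41) and DNAJC16, both more positive in SW1736, the second with its untreated SW1736 arrays below detection.

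Between 6 h and 48 h, 21 members were called in SW1736, 5 higher and 16 lower (of all genes 27.5%, 14.9% higher and 12.6% lower), and 32 in SKMEL28, 11 higher and 21 lower (of all genes 32.9%, 17.8% higher and 15.1% lower). This comparison shares its 48 h arrays with those against untreated cells. HSPA1B had 11.14, 11.29 and 11.60 at 48 h in SW1736, against 10.29, 10.62 and 11.02 at 6 h, a rise of 0.70 ± 0.20 (adjusted p 0.0117). Its signals in SKMEL28 were 11.07, 10.87 and 11.03 at 48 h, against 10.23, 10.15 and 10.51 at 6 h, a rise of 0.69 ± 0.20 (adjusted p 0.00949). The groups overlap in neither line. The call in SW1736 was lost without 6 h replicate 1 (0.52) or 48 h replicate 3 (0.57) and with median scaling (0.61). With median scaling the members called were 4 higher and 11 lower in SW1736, and 11 higher and 12 lower in SKMEL28.

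The change between 6 h and 48 h differed between the lines in 8 members, 3 more positive and 5 more negative in SW1736 (of all genes 18.2%, 9.72% more positive and 8.46% more negative). HSPA12A, HSPA1A, DNAJB2 (-1.32 ± 0.21), DNAJC15 (-0.91 ± 0.21) and DNAJB12, a J protein of the ER membrane (-0.90 ± 0.28), were the more negative ones. DNAJB5, DNAJC11 (0.82 ± 0.24) and HSPA1L were more positive. In SW1736 at 48 h, 1 of 3 arrays detected HSPA1A, 1 of 3 HSPA12A and 3 of 3 HSPA1L, against 0 of 3, 0 of 3 and 0 of 3 at 6 h. The SW1736 side of these 3 differences was therefore not measured, and no size is given. In SKMEL28 the change from 6 h to 48 h was 2.12 ± 0.20 for HSPA12A and 0.98 ± 0.18 for HSPA1A. HSPA1L lost its call on leaving out any of 9 of 12 arrays, all but SKMEL28 48 h replicate 1, SW1736 6 h replicate 3 and SW1736 48 h replicate 1, and also without background correction, with the authors' values and with median scaling. DNAJB12 lost it in 6 cases, SKMEL28 6 h replicate 3, SKMEL28 48 h replicates 2 and 3, SW1736 6 h replicates 1 and 2 and SW1736 48 h replicate 3 (-0.91 to -0.66), and with the mean of its probes (-0.37). DNAJC11 lost it with median scaling (0.77) and without SKMEL28 48 h replicate 1, SW1736 6 h replicate 2 or SW1736 48 h replicate 2 (0.66 to 0.76). The count of 8 was 5 without SW1736 6 h replicate 2 and 13 without SW1736 6 h replicate 3. With median scaling 1 member was more positive and 5 were more negative.

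Before treatment the lines differed in 46 of 73 members, 20 higher and 26 lower in SW1736 (50.2% of all genes, 25.5% higher and 24.7% lower). HSPA1A had 5.35, 4.94 and 4.70 in untreated SW1736, with 1 of 3 arrays detected, against 10.60, 10.62 and 10.46 in untreated SKMEL28 (adjusted p 6.67e-18). As most of its SW1736 signals are below detection, no size is given for that difference. Its near-identical neighbour HSPA1B went the other way, with 11.18, 10.97 and 11.55 in SW1736, against 10.80, 10.41 and 10.48 in SKMEL28 (0.67 ± 0.20, adjusted p 0.00716). Neither gene's groups overlap. The HSPA1B call was lost without SW1736 untreated replicate 3 (0.52). It was also lost with the replicate block (0.36, adjusted p 0.101). That fit compares the lines at the level of replicate 1, not at the mean of 3 arrays, so it is no check of this difference. The HSPA1A probe thus stayed low in SW1736 where HSPA1B was bright. How far the HSPA1B probe also reads HSPA1A was not tested. HSPB8 was detected on 0 of 3 arrays of SW1736, against 8.98, 9.14 and 9.43 in SKMEL28, and was at least 14.3-fold lower in SW1736 (adjusted p 2.94e-15). DNAJA4, a cytosolic J protein, was likewise detected on 0 of 3 SW1736 arrays and was at least 12.9-fold lower (adjusted p 6.14e-15), and DNAJC16 at least 1.92-fold lower (adjusted p 3.61e-08). Each such bound sets the mean of the bright group against the lowest signal among detected probes, or the dim probe's own signal where that is higher. The bounds hold for the background-corrected signals only. Without the correction the log2 difference was -2.661 for HSPB8, -2.348 for DNAJA4 and -0.745 for DNAJC16, all still called but smaller than these bounds.

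HSPA2 had 5.78, 5.41 and 5.79 in untreated SW1736, against 9.41, 9.5 and 9.53 in SKMEL28 (-3.82 ± 0.31, adjusted p 2.34e-10). These SW1736 signals are near background, and without background correction the HSPA2 difference was -2.498, still called. HSPA12A was lower too (adjusted p 3.94e-11), with 1 of 3 SW1736 arrays detected and so no size given, as was HSPA4 (-1.63 ± 0.25, and -0.68 by another probe). In the other direction, CCT5 had 7.88, 8.83 and 8.65 in SW1736, against 6.45, 6.44 and 5.86 in SKMEL28 (2.20 ± 0.23, adjusted p 2.15e-08). HSPB1 had 13.91, 13.69 and 13.61 in SW1736, against 11.96, 11.77 and 11.86 in SKMEL28 (1.88 ± 0.12, adjusted p 4.16e-12). For both genes every SW1736 array lies above every SKMEL28 array. DNAJC9 (1.42 ± 0.14), DNAJB6 (1.29 ± 0.14), HSPA4L (1.59 ± 0.21) and DNAJC21 (1.13 ± 0.20) were also higher in SW1736. DNAJC30 was at least 2.85-fold higher there by its brightest probe (adjusted p 4.11e-06), and its other probe differed by 1.37. Without background correction the log2 difference of DNAJC30 was 0.698, smaller than that bound. CCT3 and CCT4 were lower in SW1736 (-0.66 ± 0.14 and -0.69 ± 0.17), while CCT2, CCT7, CCT8 and TCP1 were not called. HSPB6 was called with its probe detected on 0 of 3 arrays of SW1736 and 0 of 3 of SKMEL28, so no fold is given.

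**Figure D5:**
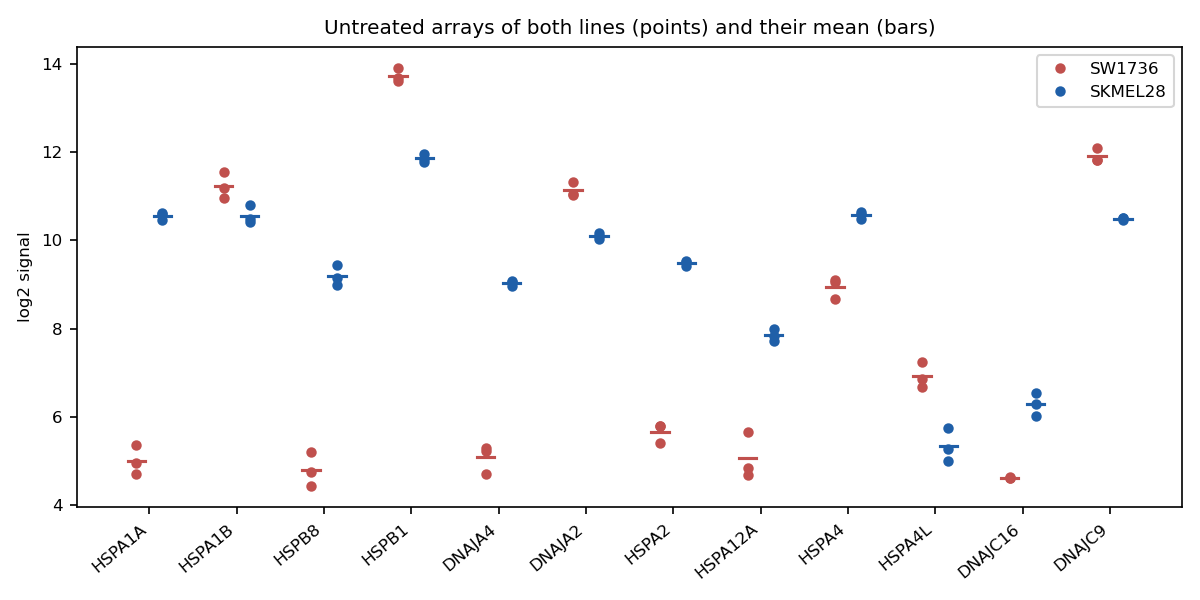
Points are the log2 signals of the 3 untreated arrays of SW1736 (left) and SKMEL28 (right) for 12 members. Levels are compared within a gene, not between genes; HSPA1A, HSPB8, DNAJA4, HSPA2 and HSPA12A are far lower in SW1736, while HSPB1, HSPA4L and DNAJC9 are higher there.

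The cofactors of the chaperones were counted from lists of known partners. Of 25 measured heat shock factors and cytosolic cochaperones, 3 were higher and 6 lower at 48 h in SW1736 and 4 higher and 7 lower in SKMEL28, with medians of -0.16 and -0.14. These 9 and 11 calls compare with 34.3% of all genes in SW1736 and 38.9% in SKMEL28, so their share is near that of all genes. FKBP4, an HSP90 cochaperone of steroid receptors, fell by 1.02 ± 0.15 in SW1736 and 0.94 ± 0.15 in SKMEL28, PTGES3, the p23 cochaperone of HSP90, by 0.99 ± 0.17 and 0.80 ± 0.17, and the HSP70 cofactor BAG2 by 1.42 ± 0.25 and 0.95 ± 0.25. HSF4, a heat shock factor of the lens, rose by 1.12 ± 0.26 in SW1736 and 1.95 ± 0.26 in SKMEL28. AHSA2P, a pseudogene related to the HSP90 activator AHSA1, rose by 0.96 ± 0.16 and 1.65 ± 0.16. ST13, which links HSP70 to HSP90, rose by 1.5 ± 0.17 in SKMEL28 and differed between the lines by -1.29 ± 0.24 (adjusted p 0.000375). Already at 6 h FKBP4 fell by 1.14 ± 0.15 in SW1736, BAG3 by 0.56 ± 0.15 in SW1736 and 0.59 ± 0.15 in SKMEL28, and BAG5, an exchange factor for HSP70, by 1.08 ± 0.16 in SKMEL28.

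Prefoldin hands unfolded actin and tubulin to the ring. Of 10 CCT cofactors and prefoldin subunits, 1 was higher and 3 lower at 48 h in SW1736, and 1 higher and 5 lower in SKMEL28. Their medians were -0.11 and -0.49. PDCD5, which binds the ring, fell by 0.72 ± 0.16 in SW1736 and 1.14 ± 0.16 in SKMEL28. The prefoldin subunit PFDN5 was the member that rose, by 0.80 ± 0.14 and 0.44 ± 0.14. Of 8 mitochondrial cochaperones 0 were higher and 5 lower in SW1736, and 0 higher and 3 lower in SKMEL28, with medians of -0.57 and -0.24. TRAP1, the HSP90 of mitochondria, fell by 1.15 ± 0.19 in SW1736 and 0.71 ± 0.19 in SKMEL28, and GRPEL1, the exchange factor of HSPA9, by 0.63 ± 0.20 and 1.27 ± 0.20. Of 10 ER chaperones 1 was higher and 2 lower in SW1736, and 1 higher and 5 lower in SKMEL28, with medians of -0.10 and -0.50. SDF2L1 fell by 0.79 ± 0.16 in SW1736 and 1.2 ± 0.16 in SKMEL28, HYOU1, an exchange factor for HSPA5, by 0.87 ± 0.18 in SKMEL28, while CALR, a lectin chaperone, rose there by 0.50 ± 0.15. Over all genes 18.2% were higher and 16.1% lower at 48 h in SW1736, and 20% higher and 18.8% lower in SKMEL28.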

How the data were processed

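RNA from 24 samples was hybridised to 24 Illumina arrays, 3 in each of 8 groups. The authors deposited a raw intensity and a detection p-value per probe, per the file headers, and a table of normalised log2 values, which are used as an alternative only. Partek is named in the submitters' processing notes, with no version and no step given there. The raw intensities were background corrected with normexp from the detection p-values (offset 16), quantile normalised and put on the log2 scale with limma 3.58.1 in R 4.3.3. Of 47231 probes, 30113 had 1 gene symbol, 8 several and 17110 none, and 30074 of the symbols matched a current gene. A probe was kept (26673 probes) at a detection p under 0.05 on at least 3 arrays, and a gene was read from its brightest kept probe. One limma model with 8 group means gave all 13 comparisons. P-values were adjusted over 13699 genes within a comparison. The number of arrays limits the precision. The script was tested on simulated data.

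Samples were grouped by their labels. The named members were a fixed list of well-known members plus, in each comparison, the 6 largest rises and 6 largest falls among those called (52 in all), and from other lists the largest changes. CCT6P1, DNAJA2, DNAJA3 and HSPB6 were named after their values were seen. The members and lists were chosen with earlier results of these data known. The alternatives tried were median scaling, leaving out the background correction, the deposited normalised values, other detection filters, the mean of a gene's probes, each line fitted alone, array weights, the replicate number as a block, and arrays left out. Same-numbered arrays of a line had deviations that correlated between -0.0226 and 0.179, so the numbers were not taken to pair the samples. Motifs were searched and figures drawn with Python 3.11.15 and matplotlib 3.10.9.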

Additional observations from a re-analysis of the deposited data

Results flagged for a closer look

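A total of 19 member responses differed between the lines by the test of the difference itself (limma, adjusted p under 0.05), each given as SW1736 minus SKMEL28 on the log2 scale. For the change between untreated cells and 6 h, these were DNAJB6 (-1.01) and DNAJC22 (1.35). For the change between untreated cells and 48 h, they were HSPA12A (-2.66), DNAJC15 (-1.52), DNAJB4 (-1.38), DNAJB2 (-1.29), DNAJB6 (-1.05), TCP1 (-0.76), HSPB1 (-0.68), DNAJC16 (0.83) and DNAJC22 (1.76). For the change between 6 h and 48 h, they were HSPA12A (-1.84), DNAJB2 (-1.32), HSPA1A (-1.11), DNAJC15 (-0.91), DNAJB12 (-0.90), DNAJC11 (0.82), HSPA1L (0.97) and DNAJB5 (1.11). The values of DNAJC16, HSPA12A, HSPA1A and HSPA1L include SW1736 groups detected on 0 or 1 of 3 arrays, so they come in part from signals near background and are not measured sizes. The comparisons at 48 h share arrays, so a member listed for both is not 2 independent results. The 3 arrays of a group are too few for a check of single outlying arrays.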

How the results depend on the processing

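The counts of called members at 48 h kept to within 1.5 times under every alternative run. At 1 h in SW1736 the count of 0 became 1, HSPA1B, without background correction, with the authors' values, with the replicate number as a block and without the third SW1736 arrays. At 6 h in SW1736 the count of 10 became 16 without background correction, 17 with the authors' values, 4 with each line fitted alone and 5 with array weights. At 6 h in SKMEL28 the count of 2 became 8 with each line fitted alone and 10 with array weights. From 6 h to 48 h in SW1736 the count of 21 became 11 with each line fitted alone and 13 with array weights, and the count of line differences over that interval, 8, became 14 without the third SW1736 arrays. The cause was not tested.

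With 1 array left out, the counts in SW1736 ran from 0 to 1 at 1 h, 6 to 13 at 6 h, 31 to 33 at 48 h and 14 to 19 between 6 h and 48 h. In SKMEL28 they ran from 0 to 0, 1 to 3, 34 to 36 and 23 to 28. For the differences between the lines they ran from 0 to 0, 2 to 3, 8 to 12 and 5 to 13, and between the untreated lines from 39 to 46. The direction of HSP90AA1 turned with the mean of its probes, between 6 h and 48 h in SKMEL28 (0.000133, adjusted p 0.999) and between the untreated lines (0.80, adjusted p 5.54e-07). Of 180 called values of the 52 named members, 111 kept their call under every alternative. The replicate block moved no count of calls by over 1.5 times other than that at 1 h in SW1736 (1 in place of 0). Among named members it ended 9 calls and made 14, and the numbers are not taken to pair the samples. Between the untreated lines the block compares the levels fitted for replicate 1, not the means of 3 arrays. The calls it ended there (CCT6A, DNAJA1, DNAJC3, HSPA1B and HSPH1) are therefore no check of the group means. Members other than the named ones, cofactors and markers were not rerun. Without background correction 57 called values of named members moved by over 1.5 times, and 5 lost their call. A group with no detected array gives a bound or no size, and such a bound holds for the background-corrected signals only.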
